A study of Mus musculus with 4 samples.

Results

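The 40 genes described here encode the transcription factors, enzymes and effectors of the integrated stress response and the chaperones, sensors and degradation factors of the endoplasmic reticulum (ER). They were taken by symbol from a list of known ATF4 targets and unfolded protein response genes. The list was chosen with earlier results of these data known. All 40 were found among the 53465 genes of the deposited table, and all 40 passed the expression filter that left 12320 genes for testing. They fall into an integrated stress response arm of 20 genes and an ER arm of 20 genes.

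The cells were B16-F10, an established mouse melanoma line that carried a fluorescent label. They had been infused into zebrafish, recovered and then grown in IMDM medium with serum. In 2 libraries, extravasated_1 and extravasated_2, the labels record that the cells had left the vessels of the fish. In the 2 control libraries, not_extravasated_1 and not_extravasated_2, the labels record no extravasation. The growth text is the same for all 4 libraries and speaks of cells that extravasated as clusters, so the grouping follows the extravasation entry and source of each sample. Whether libraries of 1 group stem from separate fish or cultures is not in the labels. The p-values therefore reflect the spread between these libraries alone, which may be technical. The number in the sample titles differs between the groups and is shared within them, and what it stands for cannot be told apart from extravasation.

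When unfolded proteins gather in the ER, 3 membrane sensors respond. PERK (Eif2ak3) phosphorylates the initiation factor eIF2 alpha, IRE1 alpha (Ern1) splices the Xbp1 transcript, and ATF6 is cut in the Golgi to free a transcription factor. Phosphorylation of eIF2 alpha, also by kinases that sense amino acid shortage, viral RNA or heme shortage, lowers general translation and favours translation of Atf4. ATF4 in turn drives genes of amino acid supply, the transcription factor CHOP (Ddit3) and feedback factors, while ATF6 and spliced XBP1 drive chaperones and degradation factors. Counts per gene measure neither Atf4 translation, nor Xbp1 splicing, nor cleavage of ATF6.

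The ER stress element, CCAAT followed after 9 bases of any kind by CCACG, is the site through which ATF6 drives chaperone genes, and it is shown here because the members that carry it included both the ER gene with the largest fall and members that did not fall. RefSeq promoters (GRCm38.p6, 250 bases before to 50 after the start) were at hand for 35 of the 40 members. The element was found on either strand in 7 of 17 ER members and in 0 of 18 members of the integrated stress response arm, against 37 of all 27025 genes with a promoter (0.137%). The members were listed as known targets, so these shares are a description of the list. The matches are printed on the strand of the gene with 15 bases on each side, or 5 for Hspa5, where an annotated exon overlaps, and capitals mark the fixed letters of the element in either orientation.
Hspa5: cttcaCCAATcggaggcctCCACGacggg
Hsp90b1: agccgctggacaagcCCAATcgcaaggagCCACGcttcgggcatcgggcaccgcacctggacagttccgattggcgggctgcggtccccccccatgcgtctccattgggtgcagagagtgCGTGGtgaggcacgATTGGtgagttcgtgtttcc
Canx: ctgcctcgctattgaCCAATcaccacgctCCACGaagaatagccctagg
Calr: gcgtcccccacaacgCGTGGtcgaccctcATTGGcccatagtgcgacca
Dnajc3: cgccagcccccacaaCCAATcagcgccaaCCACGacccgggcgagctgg
Creld2: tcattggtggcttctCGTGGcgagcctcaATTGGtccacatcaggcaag
Pdia6: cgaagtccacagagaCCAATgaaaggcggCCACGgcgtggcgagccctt

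The stretches lie at chr2:34772020-34772048 (plus strand) for Hspa5, chr10:86705518-86705671 (minus) for Hsp90b1, chr11:50325785-50325833 (minus) for Canx, chr8:84847060-84847108 (minus) for Calr, chr14:118937812-118937860 (plus) for Dnajc3, chr15:88819505-88819553 (plus) for Creld2 and chr12:17266476-17266524 (plus) for Pdia6. Hsp90b1 alone among these 7 held 2 matches. The shorter ERSE-II form, ATTGG followed after 1 base by CCACG, was found in Dnajb11 and Herpud1 (12 of all 27025 genes, 0.0444%), and the XBP1-type element TGACGTGG in 0 of 35 members (0.714% of all genes).

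The amino acid response element bound by ATF4 with C/EBP partners, TGATGNAA, was found in 7 of 35 members, against 1219 of all 27025 genes (4.51%). It is shown because 6 of these 7 were at least 1.5-fold higher in not_extravasated_2 than in not_extravasated_1, as described below. The 7 were Asns, Atf3, Chac1, Herpud1, Nupr1, Pycr1 and Trib3, and the match in Trib3 lay behind the start. The other 6 are printed on the strand of the gene with the fixed letters in capitals.
Asns: ccacaTGATGaAActtcc
Atf3: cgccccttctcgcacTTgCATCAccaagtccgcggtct
Chac1: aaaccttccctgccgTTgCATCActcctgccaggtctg
Herpud1: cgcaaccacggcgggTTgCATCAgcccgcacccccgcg
Nupr1: ccagaTTgCATCAgacag
Pycr1: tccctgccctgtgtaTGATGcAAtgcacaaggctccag

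These lie at chr6:7693220-7693237 (minus) for Asns, chr1:191183421-191183458 (minus) for Atf3, chr2:119351034-119351071 (plus) for Chac1, chr8:94386302-94386339 (plus) for Herpud1, chr7:126625568-126625585 (minus) for Nupr1 and chr11:120643829-120643866 (minus) for Pycr1. A match is a run of letters, and no binding was measured.

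The libraries held 11705904 to 19674733 counts. Pigment cell markers, of which 0 of 7 were at 0, summed to between 23900 and 30900 CPM (counts scaled to library size) in each library. Of the markers of leukocytes, fibroblasts, endothelium and epithelium, 3 of 6, 2 of 6, 3 of 5 and 3 of 5 were at 0 in all libraries, and their summed levels were 4.53 to 5.38, 8.51 to 11.3, 3.82 to 15.3 and 0.694 to 1.21 CPM. The endothelial sum, carried by Vwf (itself called higher in both fits), was 8.77 and 3.82 CPM in the control and 15.3 in both extravasated libraries, and its part in the results was not tested. Over 12307 tested genes with a known transcript, fold changes followed the GC content of the transcript (Spearman rho 0.72) and its length (-0.37). These genes share 4 libraries and are not independent. Fold changes are therefore given as fitted (uncorrected) and after a correction that smooths each library against GC content and length (corrected), which brought these to 0.02 and -0.03. The rho of each library's deviation with GC content was -0.72 and -0.56 in the control and 0.64 and 0.71 in the extravasated libraries, so the GC trend and the group cannot be told apart.

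Among the 40 members, 6 were higher and 11 lower in the extravasated libraries (quasi-likelihood test of edgeR, adjusted p under 0.05). Of all tested genes, 19.1% were called higher and 25.9% lower, so the members' counts were close to the background. In bulk RNA, a change in every cell and a change in the share of cells that express a gene cannot be told apart. Scaled by library totals alone, the split was 3 higher and 11 lower, against 15.8% and 27.2% of tested genes. The members' median log2 fold change was -0.14, against -0.02 for all tested genes. After correction 1 member was higher and 3 were lower, against 8.24% and 5.8% of all tested genes, and the medians were -0.10 and 0.04. With the longest in place of the principal transcript, 2 were higher and 3 lower, against 8.08% and 5.46%. Ddit3, Aldh1l2 and Hsp90b1 were lower in both fits. Atf6 was lower before and higher after correction. CPM of both extravasated libraries lay above both control libraries for 11 members and below them for 16, against 37.3% and 39% of tested genes.

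**Figure D1:**
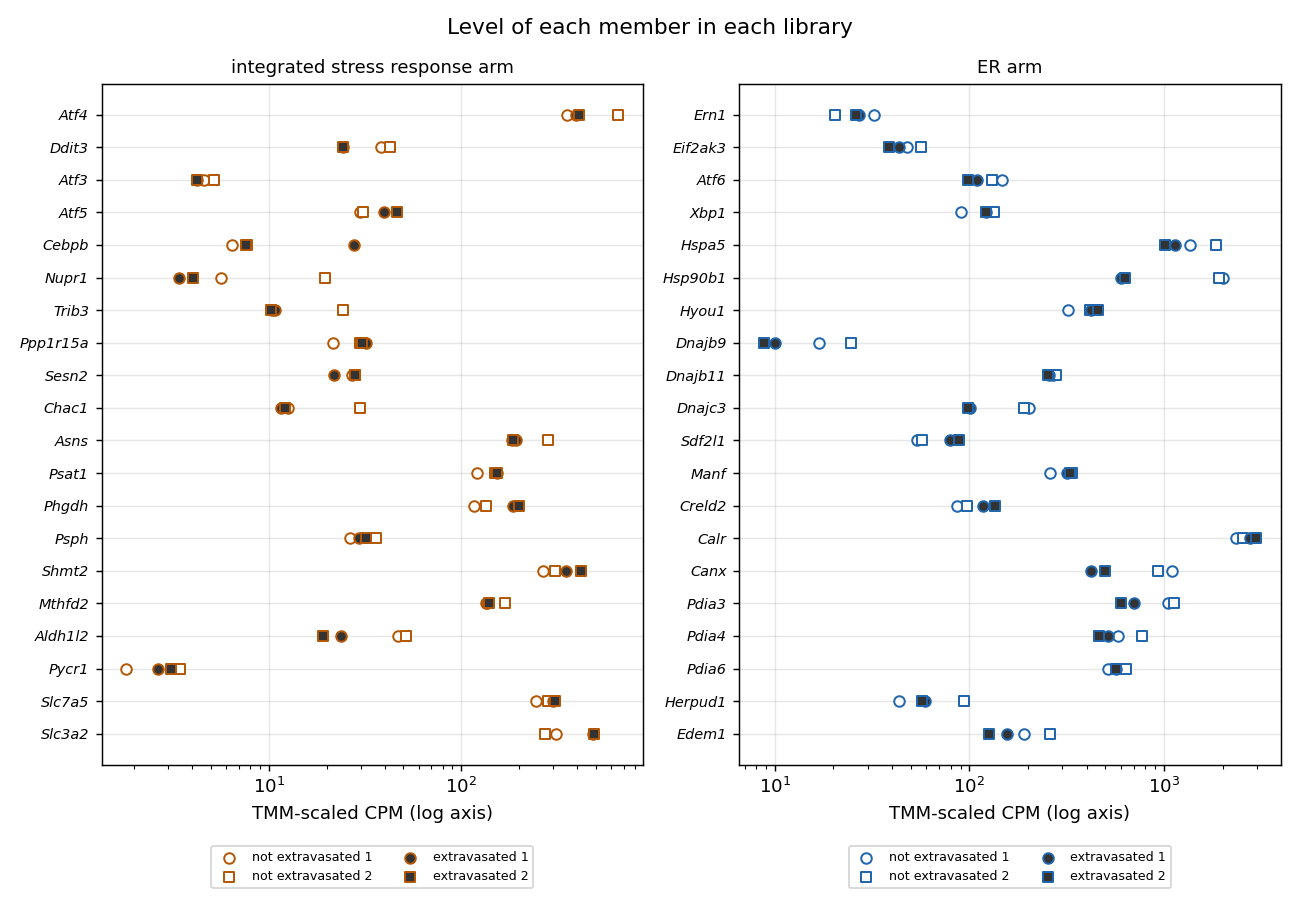
Level of each of the 40 members in each library, as TMM-scaled CPM on a log axis; open symbols are control and filled symbols extravasated libraries, circles library 1 and squares library 2 of a group. The filled symbols of Hsp90b1, Canx and Dnajc3 lie left of the open ones, and the open squares of Nupr1, Trib3 and Chac1 stand apart from the other 3 libraries.

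The arms differed in their counts before correction. In the integrated stress response arm 4 of 20 were higher and 2 lower, with a median log2 fold change of -0.08. In the ER arm 2 of 20 were higher and 9 lower, with a median of -0.29. The median GC content was 55.5% in the first arm, 49.5% in the second and 50.3% among tested genes. Of 11 ER members below that tested median, 9 were lower and 0 higher, and of 9 at or above it, 0 were lower and 2 higher. Among all tested genes below the median 3010 of 6152 were lower and 184 higher, and among those at or above it 180 of 6155 were lower and 2170 higher. After correction the median log2 fold change was -0.00 for the ER arm and -0.16 for the integrated stress response arm, with 10 and 16 of 20 members below 0. Of all 12320 tested genes, 5701 were then below 0. The difference between the arms was not tested.

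**Figure D2:**
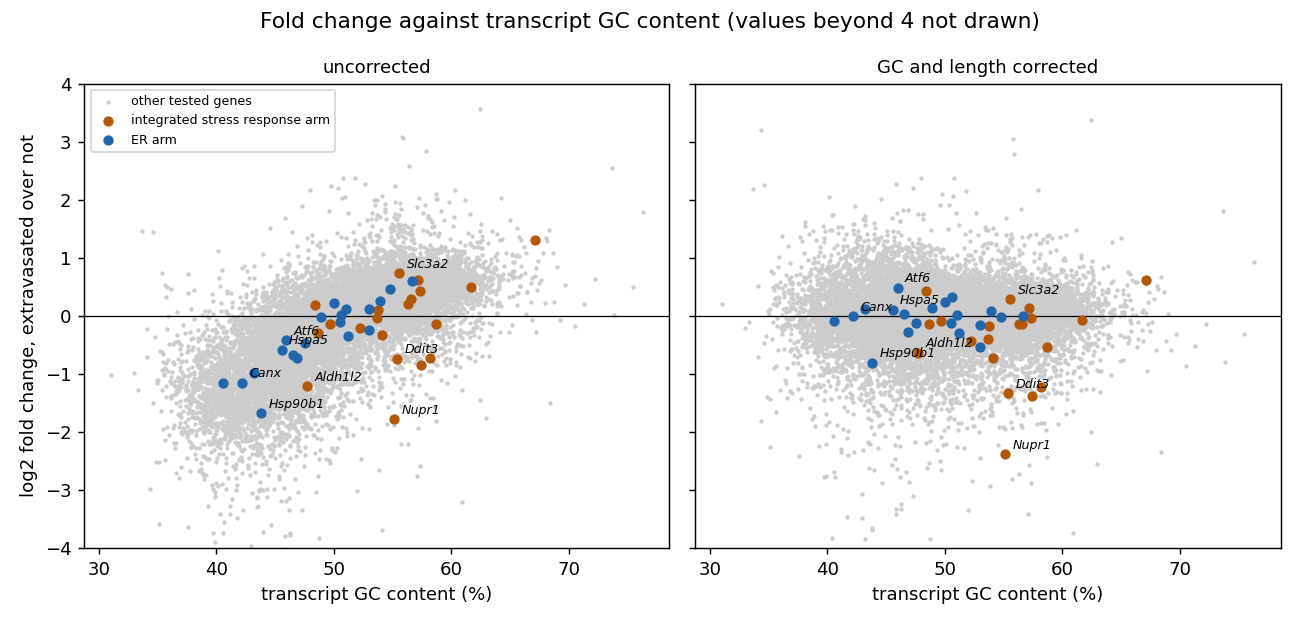
log2 fold change of extravasated over control libraries against the GC content of each gene's transcript (%), before (left) and after (right) correction, with values beyond 4 not drawn; grey points are tested genes and coloured points the members by arm. Before correction most ER members follow the slope of the grey points, and Hsp90b1, Ddit3 and Nupr1 lie below it.

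Of the 6 transcription factors of the integrated stress response, 1 rose (Atf5) and 1 fell (Ddit3). Atf4, the central regulator of the response, stood at 355 and 654 CPM in the control and 396 and 410.1 CPM in the extravasated libraries. The extravasated values lay between the controls. The log2 fold change was -0.32 ± 0.286 (SE; adjusted p = 0.399, edgeR) and -0.72 ± 0.277 after correction (adjusted p = 0.138). Set against 1 control library at a time, Atf4 was at -0.70 without not_extravasated_1 (adjusted p = 6.54e-06) and at 0.19 without not_extravasated_2 (adjusted p = 0.293). In these and all later fits that leave out a library, the spread comes from the pair of the other group alone, and the lone library is assumed to vary like that pair. A p from such a fit compares that library with the pair.

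Ddit3, which encodes the stress-induced factor CHOP (ENSMUSG00000025408.15, GRCm38 chromosome 10, 127290774 to 127296288), stood at 38.4 and 42.8 CPM in the control and at 24.5 and 24.3 CPM in the extravasated libraries. The groups did not overlap, and the control libraries differed by only a fold of 1.11. Ddit3 fell 1.67-fold, a log2 fold change of -0.74 ± 0.153 (SE; adjusted p = 0.00743, edgeR). After correction it fell 2.51-fold (-1.33 ± 0.145, adjusted p = 0.00455). Without extravasated_1 or extravasated_2 the uncorrected values were -0.65 and -0.69 and not called (adjusted p = 0.0719 and 0.0815), and the corrected ones were -1.33 and -1.31 (adjusted p = 0.0527 and 0.106). Its exons overlap a second annotated model of the same symbol on the same strand over 6.1% of their length, and those of Mars on the other strand over 4.0%.

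Atf5, an ATF4-related factor that acts in the mitochondrial stress response, stood at 29.9 and 31.0 CPM in the control and 39.7 and 46.1 CPM in the extravasated libraries. It rose 1.41-fold (log2 0.49 ± 0.153, adjusted p = 0.0328), with groups that did not overlap. After correction the log2 fold change was -0.07 (adjusted p = 0.752), and without extravasated_2 the uncorrected one was 0.42 (adjusted p = 0.193). Cebpb, a C/EBP partner of ATF4, stood at 6.42, 7.70 and 7.63 CPM in both control libraries and extravasated_2 and at 27.8 CPM in extravasated_1. That library alone set its log2 fold change of 1.30 ± 0.611 (adjusted p = 0.138). It was 0.20 without extravasated_1, and 2.01 and called without extravasated_2 (adjusted p = 0.0186). Cebpb exons overlap those of Tmem189 on the other strand over 20.7% of their length. Atf3, an early stress factor, was scarce, at 4.24 to 5.21 CPM in the 4 libraries, and was not called.

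Of the feedback factors and effectors, 0 of 4 were called by edgeR, with or without correction. Trib3, a pseudokinase that restrains ATF4 and AKT, stood at 10.4 and 24.2 CPM in the control and 10.8 and 10.3 CPM in the extravasated libraries. Chac1, which degrades glutathione, stood at 12.7 and 29.8 CPM in the control and 11.6 and 12.2 CPM in the extravasated libraries. In both genes not_extravasated_2 was high and the other 3 libraries lay together. Their log2 fold changes were -0.73 (adjusted p = 0.173) and -0.85 (adjusted p = 0.131). Ppp1r15a, the phosphatase subunit that reverses eIF2 alpha phosphorylation, and Sesn2, a stress-induced inhibitor of mTORC1, ranged from 21.5 to 32.2 and from 22 to 28.1 CPM. At an unadjusted p under 0.05, 0 of the 4 passed without correction and 3 with it, against 6629 and 3988 of all 12320 tested genes. DESeq2 and limma-voom, run without correction, called 0 of the 4. Without the expression filter Trib3 and Chac1 were called lower.

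Enzymes of serine and folate metabolism, which ATF4 induces to supply amino acids and methylene groups, did not move as 1 block. Phgdh, the first enzyme of serine synthesis, stood at 117 and 134 CPM in the control and 185 and 199 CPM in the extravasated libraries. It rose 1.53-fold (log2 0.61 ± 0.13, adjusted p = 0.00809). Shmt2, which passes a carbon unit from serine to folate in mitochondria, stood at 265 and 308 CPM in the control and 352 and 417 CPM in the extravasated libraries. It rose 1.34-fold (log2 0.42 ± 0.139, adjusted p = 0.0391). The groups did not overlap for either gene. Neither was called after correction, with log2 fold changes of 0.13 (adjusted p = 0.492) and -0.03 (adjusted p = 0.895). Without extravasated_2, Phgdh was at 0.60 (adjusted p = 0.0755) and Shmt2 at 0.33 (adjusted p = 0.256), and Shmt2 was not called without not_extravasated_1 either (0.32, adjusted p = 0.0587) and stood at 0.64 without extravasated_1 (adjusted p = 0.0495).

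Aldh1l2, the mitochondrial formyltetrahydrofolate dehydrogenase (ENSMUSG00000020256.14, GRCm38 chromosome 10, 83487450 to 83534140), went the other way. It stood at 46.9 and 51.6 CPM in the control and at 23.7 and 19.1 CPM in the extravasated libraries, with no overlap. Aldh1l2 fell 2.31-fold (log2 -1.21 ± 0.169, adjusted p = 0.00202) and 1.55-fold after correction (-0.63 ± 0.149, adjusted p = 0.0322). Its uncorrected call held without each library in turn, with values of -1.28 to -1.02. The corrected call ended without extravasated_1 (-0.69, adjusted p = 0.16) or extravasated_2 (-0.56, adjusted p = 0.269). Exons of D10Wsu102e on the other strand overlap 14.1% of its exon length.

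The other enzymes did not pass the test in either fit. Psat1 and Psph, the later steps of serine synthesis, had log2 fold changes of 0.18 and -0.03, Mthfd2, a mitochondrial folate enzyme, of -0.14, and Pycr1, of proline synthesis, of 0.10 at a level of 1.82 to 3.47 CPM. Asns, the asparagine synthetase, stood at 184 and 282 CPM in the control and 192 and 186 CPM in the extravasated libraries, so that not_extravasated_2 again stood alone. Its log2 fold change was -0.30 (adjusted p = 0.261).

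Slc3a2 and Slc7a5 encode the heavy and light chain of the leucine transporter LAT1. Slc3a2 stood at 309 and 274 CPM in the control and at 481 and 491 CPM in the extravasated libraries. It rose 1.67-fold (log2 0.74 ± 0.119, adjusted p = 0.00312), the largest rise among the called members, and kept this call without each library in turn (0.66 to 0.85). After correction the value was 0.29 (adjusted p = 0.134) with the principal transcript and 0.44 (adjusted p = 0.0449) with the longest. Slc7a5 stood at 246 and 281 CPM in the control and 299 and 309 CPM in the extravasated libraries, a log2 fold change of 0.21 that did not pass (adjusted p = 0.205). Per kilobase of transcript, Slc3a2 stood at 160.2 CPM in the control and 267 in the extravasated libraries, and Slc7a5 at 74.9 and 86.4.

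**Figure D3:**
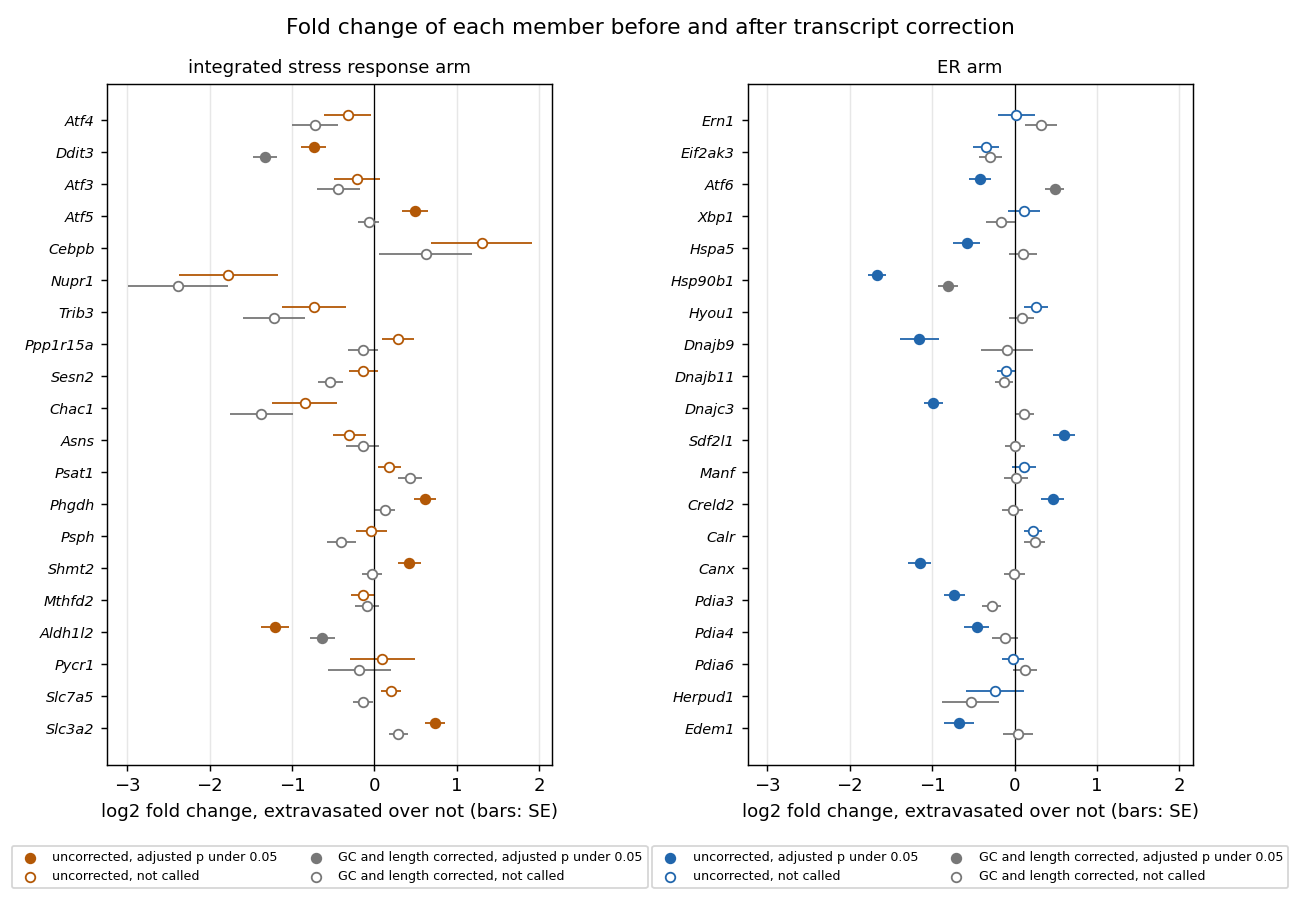
log2 fold change of extravasated over control libraries for each member with its standard error, before (coloured) and after (grey) GC and length correction; filled points have an adjusted p under 0.05. Ddit3, Aldh1l2 and Hsp90b1 are filled left of 0 in both, and Atf6 is filled left of 0 before and right of it after correction.

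Of the ER stress sensors and their target Xbp1, 1 of 4 was called. Atf6 (ENSMUSG00000026663.6, GRCm38 chromosome 1, 170704674 to 170867771) stood at 147 and 131 CPM in the control and at 109 and 98.4 CPM in the extravasated libraries. It fell 1.33-fold before correction (log2 -0.42 ± 0.133, adjusted p = 0.0356). After correction for a transcript of 46.0% GC and 7246 bases it was higher (0.49 ± 0.111, adjusted p = 0.0292), and with the longest transcript likewise (0.45, adjusted p = 0.037). Both calls ended without extravasated_1 (-0.40, adjusted p = 0.131, and corrected 0.52, adjusted p = 0.162) or extravasated_2 (-0.30, adjusted p = 0.259, and corrected 0.46, adjusted p = 0.244). The uncorrected call also ended without not_extravasated_1 (-0.33, adjusted p = 0.0733). The direction of Atf6 thus depends on the correction.

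Ern1 stood at 32.2 and 20.5 CPM in the control and 27.1 and 26.1 CPM in the extravasated libraries, which lay between the controls. Its log2 fold change was 0.02 ± 0.228 (adjusted p = 0.95). Eif2ak3 stood at 47.7 and 56.4 CPM in the control and 43.4 and 38.8 CPM in the extravasated libraries. The groups did not overlap, and the log2 fold change of -0.34 ± 0.154 did not pass (adjusted p = 0.104). It passed without not_extravasated_1 (-0.46, adjusted p = 0.0264). Xbp1 stood at 90.1 and 134 CPM in the control and at 121 CPM in both extravasated libraries. Its log2 fold change was 0.11 ± 0.19 (adjusted p = 0.652), and it was 0.44 without not_extravasated_2. After correction the values of Ern1, Eif2ak3 and Xbp1 were 0.32, -0.29 and -0.16 and did not pass (adjusted p = 0.297, 0.196 and 0.583). Corrected, Ern1 was at 0.61 without not_extravasated_1 and at 0.07 without not_extravasated_2.

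Hsp90b1, the ER paralogue of HSP90 that folds integrins and Toll-like receptors (ENSMUSG00000020048.13, GRCm38 chromosome 10, 86690209 to 86705509), showed the largest fall among the called members. It stood at 2002 and 1917 CPM in the control and at 599 and 630.4 CPM in the extravasated libraries. The groups lay far apart while libraries of 1 group were close. Hsp90b1 fell 3.19-fold (log2 -1.67 ± 0.11, adjusted p = 0.000719) and 1.75-fold after correction (-0.81 ± 0.122, adjusted p = 0.00901). Without each library in turn the uncorrected value ran from -1.70 to -1.54 and kept its call. The corrected value was not called without extravasated_1 (-0.70, adjusted p = 0.109) or extravasated_2 (-0.89, adjusted p = 0.123). Its transcript has 43.8% GC, and its exons share 10.3% of their length with 1810014B01Rik on the other strand.

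Hspa5, which encodes BiP, the ER HSP70 that also holds the 3 sensors inactive, stood at 1364 and 1854.5 CPM in the control and at 1138 and 1012 CPM in the extravasated libraries. The groups did not overlap, and the 2 controls differed more from each other than not_extravasated_1 did from extravasated_1. Hspa5 fell 1.5-fold before correction (log2 -0.58 ± 0.161, adjusted p = 0.0233), and its corrected value was 0.11 ± 0.171 (adjusted p = 0.699). Without extravasated_1 or extravasated_2 the uncorrected values were -0.58 and -0.47 and not called (adjusted p = 0.145 and 0.248). Without not_extravasated_2 the value was -0.34 before correction (adjusted p = 0.0324) and 0.40 after it (adjusted p = 0.0425). Of the 2 main ER chaperones, Hsp90b1 was called after correction and Hspa5 was not, and the difference between them was not tested. Per kilobase of transcript, the mean level of Hsp90b1 was 694 CPM in the control and 218 CPM in the extravasated libraries, and that of Hspa5 was 438 and 293 CPM.

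Of the cochaperones, Dnajc3 (p58IPK), a J protein that inhibits PERK, stood at 203 and 191 CPM in the control and at 101 and 98.5 CPM in the extravasated libraries. It fell 1.98-fold (log2 -0.98 ± 0.121, adjusted p = 0.0013) and had a corrected value of 0.12 (adjusted p = 0.527). Dnajb9 (ERdj4), a J protein that represses IRE1 alpha, stood at 16.8 and 24.8 CPM in the control and at 9.99 and 8.79 CPM in the extravasated libraries. It fell 2.23-fold (log2 -1.16 ± 0.24, adjusted p = 0.00749), and its corrected value was -0.09 (adjusted p = 0.869). Their transcripts have 43.2% and 40.6% GC. Groups did not overlap for either gene. Dnajb9 was not called without extravasated_1 (-1.16, adjusted p = 0.0567) or extravasated_2 (-1.03, adjusted p = 0.0974).

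Sdf2l1 and Creld2 rose before correction. Sdf2l1, a partner of BiP cochaperones, stood at 53.6 and 57.2 CPM in the control and 79.9 and 88.1 CPM in the extravasated libraries, a 1.52-fold rise (log2 0.60 ± 0.134, adjusted p = 0.00966). Creld2, a stress-induced disulfide isomerase-like protein, stood at 85.9 and 96.9 CPM in the control and 117 and 135 CPM in the extravasated libraries, a 1.38-fold rise (log2 0.46 ± 0.138, adjusted p = 0.0286). Their transcripts have 56.7% and 54.8% GC, and the corrected values were 0.00 (adjusted p = 0.987) and -0.02 (adjusted p = 0.914). Without extravasated_2 neither was called (0.57, adjusted p = 0.082, and 0.39, adjusted p = 0.182). Hyou1, the nucleotide exchange factor of BiP, Dnajb11, its cochaperone, and Manf, a secreted ER stress factor, had log2 fold changes of 0.26, -0.11 and 0.11 and did not pass in either fit.

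The lectin chaperones calnexin and calreticulin, which hold glycoproteins through the same sugar, are given side by side, and the difference between them was not tested. Canx, the membrane-bound form, stood at 1104 and 935 CPM in the control and at 421 and 497 CPM in the extravasated libraries. It fell 2.22-fold (log2 -1.15 ± 0.138, adjusted p = 0.00124), without each library in turn by log2 values of -1.26 to -0.94 that were all called. After correction for its 42.2% GC the value was -0.00 (adjusted p = 0.985). Calr, the soluble form with 50% GC, stood at 2356 and 2537 CPM in the control and at 2752.5 and 2966 CPM in the extravasated libraries. Its log2 fold change was 0.22 ± 0.11 (adjusted p = 0.131) and its corrected one 0.24 (adjusted p = 0.217). Per kilobase, Calr had the highest level of the 40 members, 1120.1 CPM in the control and 1309 in the extravasated libraries, against 238 and 107 for Canx.

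Of the disulfide isomerases, Pdia3 (ERp57), which works with both lectins, stood at 1047 and 1122.5 CPM in the control and at 705 and 603.5 CPM in the extravasated libraries. It fell 1.66-fold (log2 -0.73 ± 0.123, adjusted p = 0.00361), with a corrected value of -0.28 (adjusted p = 0.143). Without extravasated_2 it was not called (-0.58, adjusted p = 0.0719). Pdia4 (ERp72) stood at 581 and 769 CPM in the control and at 516 and 466 CPM in the extravasated libraries. It fell 1.38-fold (log2 -0.46 ± 0.154, adjusted p = 0.0433) with a corrected value of -0.12 (adjusted p = 0.637), and it kept its call only without not_extravasated_1 (-0.65, adjusted p = 2.5e-05), with -0.24, -0.44 and -0.35 without not_extravasated_2, extravasated_1 and extravasated_2 (adjusted p = 0.158, 0.216 and 0.341). Pdia6, at 514 to 640.4 CPM in the 4 libraries, was not called (log2 -0.02, adjusted p = 0.913).

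Of the degradation factors, Edem1, which sends misfolded glycoproteins to the cytosol, stood at 190.3 and 258 CPM in the control and at 155 and 127 CPM in the extravasated libraries. It fell 1.59-fold (log2 -0.67 ± 0.18, adjusted p = 0.0208), with a corrected value of 0.04 (adjusted p = 0.899). Without extravasated_1 or extravasated_2 the uncorrected values of -0.73 and -0.50 were not called (adjusted p = 0.0854 and 0.225), and without not_extravasated_2 the call held at -0.43 (adjusted p = 0.0162). Herpud1, a scaffold of the degradation complex, stood at 43.4 and 93.6 CPM in the control and 59.4 and 57.4 CPM in the extravasated libraries. Its log2 fold change was -0.24 ± 0.354 (adjusted p = 0.623), with the extravasated libraries between the controls.

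The 7 members with the ER stress element printed above were thus spread over the results. Of these, 4 were lower (Hsp90b1, Canx, Dnajc3 and Hspa5), Creld2 was higher, and Calr and Pdia6 were not called. After correction Hsp90b1 was the only call among the 7, and their median log2 fold change was 0.11, against -0.58 before. Among the 18 tested genes with the element in all, 8 were lower and 2 higher before correction, and 3 and 1 after it. The 18 include the 7 members, which make up 4 of the 8, 1 of the 2 and 1 of the 3. The element was shown because of the members' values, so these counts are not independent of them. Of 9214 tested genes with a promoter and no element, 2459 were lower and 1849 higher before correction, and 530 and 786 after it.

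The control libraries differed from each other in members of both arms. The median log2 ratio of not_extravasated_2 over not_extravasated_1 was 0.29 in the integrated stress response arm and 0.21 in the ER arm. In not_extravasated_2, 7 of the 40 members were at least 1.5-fold above not_extravasated_1, against 5.19% of tested genes. These were Nupr1, Chac1, Trib3, Herpud1, Pycr1, Atf4 and Asns, with ratios of 3.49, 2.35, 2.33, 2.16, 1.90, 1.84 and 1.53. They were picked out after their values were seen. In the other direction, 1 member (Ern1) was at least 1.5-fold lower in not_extravasated_2, as were 1509 of 12320 tested genes. Nupr1, a small chromatin-linked stress protein, stood at 5.64 and 19.7 CPM in the control and at 3.41 and 4.05 CPM in the extravasated libraries. Its log2 fold change was -1.77 ± 0.602 (adjusted p = 0.0617) and -2.38 ± 0.611 after correction (adjusted p = 0.0583). Of the 40 members, 34 were higher in not_extravasated_2 than in not_extravasated_1, against 5031 of 12320 tested genes. The members' median log2 ratio was 0.25, against -0.07 for tested genes. After GC and length correction the members' median ratio was 0.26, against 0.02 for tested genes.

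Between the extravasated libraries, 0 of 40 members were at least 1.5-fold higher in extravasated_2 and 1, Cebpb, was at least 1.5-fold lower. Of 12320 tested genes, 491 were that much higher and 802 that much lower. The median log2 ratio was 0.01 for the members and -0.00086 for tested genes. Of the 7 genes high in not_extravasated_2, 6 had the amino acid response element in their promoter. Among the members with a promoter and no match, 1 of 28 (Atf4) reached this ratio. Among all tested genes with a match 22 of 241 (9.13%) reached it, and among those with a promoter and no match 384 of 8991 (4.27%). The 241 include the 7 members with a match, and the 22 include the 6 named members. That share is thus not independent of the members picked by their values. What sets not_extravasated_2 apart was not tested.

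**Figure D4:**
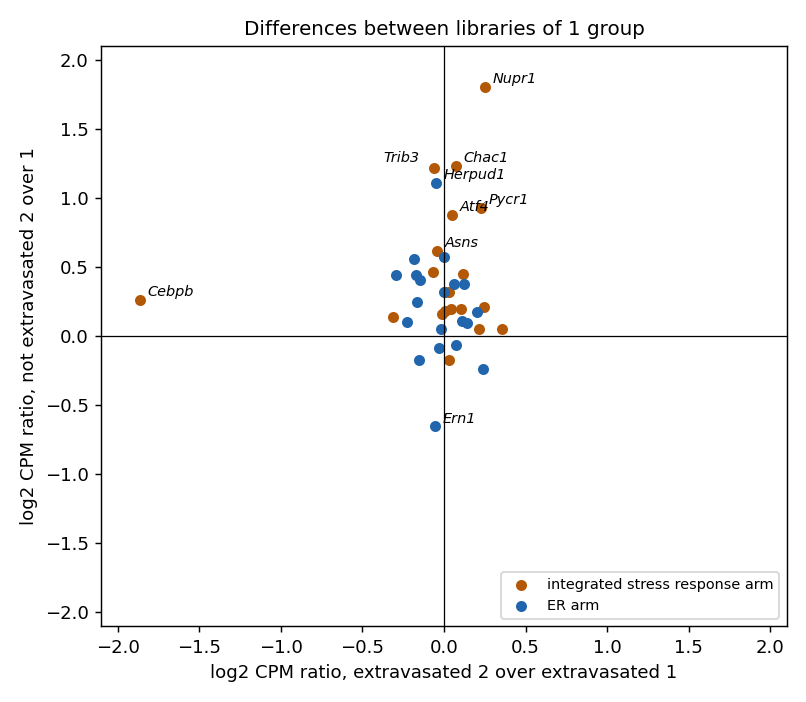
log2 CPM ratio between libraries of 1 group for each member: not_extravasated_2 over not_extravasated_1 on the vertical axis and extravasated_2 over extravasated_1 on the horizontal axis, coloured by arm. Names mark members at least 1.5-fold apart in either pair. Most points lie above 0 on the vertical axis and near 0 on the horizontal one, and Cebpb lies far to the left.

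The calls among the members thus depended on which library was left out. Without not_extravasated_1, 17 members were lower and 5 higher, against 27.3% and 21.5% of tested genes. Atf4, Nupr1 (-2.39), Trib3 (-1.20), Chac1 (-1.32), Asns (-0.58), Eif2ak3 and Herpud1 (-0.68) joined the lower ones. Without not_extravasated_2, 10 were lower and 10 higher, against 28.1% and 19.4%, and Ppp1r15a (0.55), Xbp1, Hyou1 (0.47) and Herpud1 (0.43) joined the higher ones. These fits set 1 control library against the close pair of extravasated libraries, so the values of Herpud1 restate its control levels of 93.6 and 43.4 CPM. Without extravasated_1, 5 members were lower and 6 higher, against 15.1% and 12.7%. Without extravasated_2, 4 were lower and 2 higher, against 10.5% and 4.29%. Corrected and without extravasated_1, edgeR called no member and few of all tested genes. Ddit3, Aldh1l2 and Hsp90b1 then stood at -1.33, -0.69 and -0.70. Corrected and without extravasated_2, it again called no member and hardly any tested gene. The same members then stood at -1.31, -0.56 and -0.89. No other tool was run in those fits. Corrected fits that left out a control library did call members in each direction, and some corrected values moved with the library left out. Without not_extravasated_1 and without not_extravasated_2, Atf4 was at -1.08 and -0.20, and Trib3 at -1.66 and -0.46. Xbp1 was at -0.41 and 0.17 and Hspa5 at -0.12 and 0.40, while Hsp90b1 was at -0.84 and -0.75.

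Of 103 further genes of the same pathways, 97 were tested, and 22 were higher and 28 lower, close to the background of 19.1% and 25.9%. After correction 7 were higher and 5 lower, against 8.24% and 5.8% of all tested genes. Before correction, fewer of them were called in each direction without extravasated_1 or without extravasated_2, as among all tested genes. Among the kinases of eIF2 alpha, Eif2ak2 (PKR), the sensor of double-stranded RNA, stood at 57.7 and 43.7 CPM in the control and at 12.6 and 8.48 CPM in the extravasated libraries. It fell 4.84-fold (log2 -2.28 ± 0.242, adjusted p = 0.001), and after correction the value was -1.31 (adjusted p = 0.00787). Of the 7 genes around eIF2 alpha and the sensors, 4 were lower and 0 higher, among them Mbtps2, a protease that cuts ATF6 (-1.54, corrected -0.33), and Eif2s1, eIF2 alpha itself (-0.68, corrected 0.48). These corrected values did not pass (adjusted p = 0.231 and 0.0744). Of the 7, 5 had a GC content below the median of tested genes. Below that median, 3010 of 6152 tested genes were lower and 184 higher before correction.

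Of 16 other ATF4 targets tested, 2 were higher and 3 lower, and 1 was lower after correction. Cebpg, a partner of ATF4, had a log2 fold change of -1.15 (corrected -0.11), Slc7a11, the cystine transporter, of -1.23 (corrected 0.33), and Slc1a5, a glutamine transporter, of 0.48 (corrected 0.08). The 3 passed before correction and not after it. The target lower after correction was Ddit4, at a mean of 8.77 CPM. It fell in both fits (-1.34, adjusted p = 0.0101, and corrected -1.86, adjusted p = 0.00901). In 15 genes of ER-associated degradation 4 were higher and 3 lower, and 2 were higher after correction. Derl1, a channel component, rose in both fits (0.53 and 0.69), whereas Edem3 (-1.58, corrected -0.42) and Erlec1 (-0.73, corrected 0.38) passed only before correction.

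Among 13 oxidative folding genes 2 were higher and 5 lower. The falls of Tmx3 (-1.63, corrected -0.40), Tmx1 (-1.08, corrected 0.04) and Erp44 (-0.94, corrected 0.11), all thioredoxin-like ER proteins, did not pass after correction, when 1 gene of the list was higher and 0 were lower. Among 14 genes of the calnexin cycle and of N-glycosylation 7 were higher and 2 lower. Uggt2, a glucosyltransferase of the folding sensor family, fell 6.09-fold (-2.61, adjusted p = 0.0012; corrected -1.23, adjusted p = 0.0157). Mogs, the first glucosidase, rose 1.71-fold (0.77, adjusted p = 0.00266; corrected 0.32, adjusted p = 0.116), and Gfpt1, of hexosamine synthesis, fell (-0.97, adjusted p = 0.00401; corrected 0.07, adjusted p = 0.777). After correction 3 of the 14 were higher and 1 lower.

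Of 20 genes of protein translocation 4 were higher and 6 lower, and 1 and 1 after correction. Ssr3 (-1.25), Sec63 (-1.28) and Spcs3 (-1.20), a translocon-associated protein, a translocation factor and a signal peptidase subunit, fell, and their corrected values of -0.13, -0.16 and -0.02 did not pass. Of 12 other ER chaperones and cofactors 3 were higher and 5 lower. Hspa13 (-1.61, corrected -0.36) and Dnajb14 (-1.11, corrected 0.34) fell before correction alone, while Dnajc1, an ER J protein, fell in both fits (-1.27, adjusted p = 0.00261; corrected -0.87, adjusted p = 0.029), and it was the only call among these 12 after correction.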

How the data were processed

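The authors deposited raw read counts per gene for 4 polyA libraries. Per the submitters' processing notes, the build was GRCm38 and the tools included STAR 2.5.3a and bcl2fastq 2.18.0.12. Counter, annotation and strand setting are not given in the sources used here, so values of overlapping or near-identical genes are uncertain. Symbols and transcripts came from GENCODE M21 (GRCm38), which matched 53360 of 53465 identifiers.

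edgeR 4.0.16 (R 4.3.3) was run on all genes with its expression filter (minimum count 10, total 15), TMM factors, robust dispersions and the quasi-likelihood test, adjusted by Benjamini-Hochberg with a threshold of 0.05. Levels are TMM-scaled CPM, and levels per kilobase use the length of the principal transcript. For the correction, each library's deviation of log2 CPM (prior count 2) from the mean was fitted by smooth terms of the APPRIS principal transcript's GC content and its log2 length (mgcv 1.9.3, basis size 10) and entered as an offset. Alternatives were RLE factors, library totals, DESeq2 1.42.0, limma-voom (limma 3.58.1), no filter, the kind of title suffix as a term, the longest transcript, and leaving out each library. The code was tested on simulated counts. The members, lists and correction were chosen with earlier results of these data known. Values per library are given for members called in either fit and for Atf4, Ddit3, Hspa5, Xbp1, Atf6, Ern1 and Eif2ak3; of each further list, up to 3 called genes with the smallest adjusted p and a mean of at least 10 CPM are named. Other names were chosen after their values were seen.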

Additional observations from a re-analysis of the deposited data

How the results depend on the processing

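With RLE factors and with limma-voom, all 17 called members kept their calls and no other was added. With DESeq2, and with a term for the type of title suffix (the library of each group whose title ends in C against the other), 7 were higher and 12 lower, with Cebpb and Nupr1 added. Without the expression filter 6 were higher and 14 lower, with Nupr1, Trib3 and Chac1 added. With library totals in place of scaling factors 3 members were higher and 11 lower, with Atf5, Shmt2, Creld2 and Pdia4 lost and Nupr1 added, and 13 genes of the wider pathway list were higher. Ern1 was then at -0.024, and Pdia6 was at 0.0017 with RLE factors and with DESeq2, on the other side of 0 from the uncorrected value, and neither was called.

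Under the GC and length correction with the principal transcript, 1 member was higher and 3 lower, with 7 and 5 of the wider list and 1015 and 714 of all tested genes. With the longest transcript these counts were 2 and 3, 8 and 5, and 996 and 673. On the other side of 0 from the uncorrected log2 fold change were, with the principal transcript, Atf5 -0.068, Ppp1r15a -0.14, Shmt2 -0.029, Pycr1 -0.18, Slc7a5 -0.14, Atf6 0.49, Xbp1 -0.16, Hspa5 0.11, Dnajc3 0.12, Creld2 -0.024, Pdia6 0.13 and Edem1 0.040. With the longest transcript they were Atf5 -0.084, Ppp1r15a -0.11, Shmt2 -0.054, Pycr1 -0.21, Slc7a5 -0.16, Atf6 0.45, Xbp1 -0.20, Hspa5 0.060, Dnajc3 0.095, Sdf2l1 -0.0098, Manf -0.033, Creld2 -0.041, Pdia6 0.070 and Edem1 0.0012. Of these only Atf6 was called after correction.

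Leaving out each library in turn, with and without the correction, gave 0 to 10 members higher and 0 to 17 lower, 0 to 27 and 0 to 34 of the wider list, and 0 to 2758 and 2 to 3541 of all tested genes. The log2 fold changes that crossed 0 in any of these 8 fits ranged as follows: Atf4 -1.08 to 0.19, Atf5 -0.10 to 0.69, Cebpb -0.51 to 2.01, Trib3 -1.66 to 0.021, Ppp1r15a -0.32 to 0.55, Sesn2 -0.65 to 0.13, Asns -0.58 to 0.23, Psph -0.59 to 0.22, Shmt2 -0.10 to 0.64, Mthfd2 -0.29 to 0.11, Pycr1 -0.53 to 0.67, Slc7a5 -0.22 to 0.32, Ern1 -0.27 to 0.61, Atf6 -0.49 to 0.52, Xbp1 -0.41 to 0.44, Hspa5 -0.79 to 0.40, Hyou1 -0.095 to 0.47, Dnajb9 -1.40 to 0.47, Dnajc3 -1.02 to 0.21, Sdf2l1 -0.036 to 0.77, Manf -0.15 to 0.32, Creld2 -0.10 to 0.65, Canx -1.26 to 0.12, Pdia4 -0.65 to 0.13, Pdia6 -0.17 to 0.33, Herpud1 -0.96 to 0.43 and Edem1 -0.87 to 0.35. The cause of these changes was not tested.

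The labels give no replicate numbers, so the suffix term was the only pairing tried. With 2 libraries a group the spread is poorly known, and the GC trend, the title numbers and the groups cannot be told apart. Low levels (Pycr1, Atf3, Nupr1) rest on few counts.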
